A study of Mus musculus with 6 samples.

Results

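Integrins are the receptors by which cells hold the extracellular matrix. Each is a pair of an alpha and a beta chain, and the pair sets which matrix protein is bound. The genes described here were measured in bEND.3 cells, a mouse brain endothelial line made immortal in culture, after knockdown of the long non-coding RNA Gm39822. They are 10 of the 49315 genes in the count table, and all 10 were among the 18234 genes with enough counts to be tested. Itga3, Itga5, Itga6, Itgav, Itgb1, Itgb3 and Itgb5 were taken as the main subunits of endothelial cells. Itga7, Itga10 and Itgb6 were picked on these same samples, chosen by their rise in the GapmeR group, so their rise is given as a description with no test.

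In endothelium, Itgb1 pairs with many alpha chains to bind laminins, collagens and fibronectin, and Itgav pairs with Itgb3 or Itgb5 to bind proteins that carry an RGD motif, such as vitronectin. These pairs anchor endothelial cells to the basement membrane and carry signals in angiogenesis. Itga7, Itga10 and Itgb6 are better known from other tissues. Itga7 is the laminin receptor chain of skeletal muscle, Itga10 a collagen receptor chain of chondrocytes, and Itgb6 an epithelial partner of Itgav that activates latent TGF-beta.

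A GapmeR is an antisense oligonucleotide with a DNA core through which RNase H cuts the paired RNA. The cells were transfected by Lipofectamine with a locked nucleic acid GapmeR against Gm39822 or with a negative control GapmeR of the same chemistry, each at 100 nM, and total RNA was sequenced. There were 4 GapmeR samples and 2 Negative Control samples. All samples come from the same cell line, and no label says that they were separate cultures, so p-values measure the spread between these samples only, which may be technical. No untransfected cells were analysed here. Each group received a different oligonucleotide, so loss of Gm39822 and other effects of the targeting GapmeR cannot be told apart.

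Total counts were 30264086 to 37117934 under the GapmeR, against 29261988 and 34266811 in controls. The targeted Gm39822 had 2, 1, 4 and 2 counts across GapmeR samples 1 to 4, against 61 and 56 for the control pair. The 12 endothelial markers, Cdh5 and Pecam1 among them, summed to 9810 to 10900 CPM (read counts scaled to a common library size) under the GapmeR, against 11600 to 12000 in controls, with 7 called lower and 2 higher. In these bulk samples, fewer cells of a type and less RNA per cell cannot be told apart. The GapmeR samples differed from the controls across much of the transcriptome. By edgeR's quasi-likelihood test, 45.3% of the 18234 genes passed an adjusted p of 0.05, 25.4% as higher and 20.0% as lower. With scaling by library size only, the calls were 6106 higher and 2135 lower, against 4625 and 3643 with TMM scaling.

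All of the main subunits were called, 5 as lower and 2 as higher, and the abundant ones fell. Itga3, Itgb3, Itga5, Itgb1 and Itga6 were lower in the GapmeR samples, while Itgav and Itgb5 were higher. Of these, Itgb5 was weakly expressed in this line, with a mean of 2.76 CPM in the controls. The median log2 fold change of the main subunits was -0.47, and that of all genes tested was 0.03. All 10 genes had CPM values that did not overlap between the groups, as did 59.2% of all genes tested. Part of this count was fixed by how 3 of the genes were chosen. Abundant genes in general tended to fall: among the 620 genes with a mean of at least 300 CPM the median log2 fold change was -0.18, with 44.5% called lower and 7.58% higher.

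**Figure D1:**
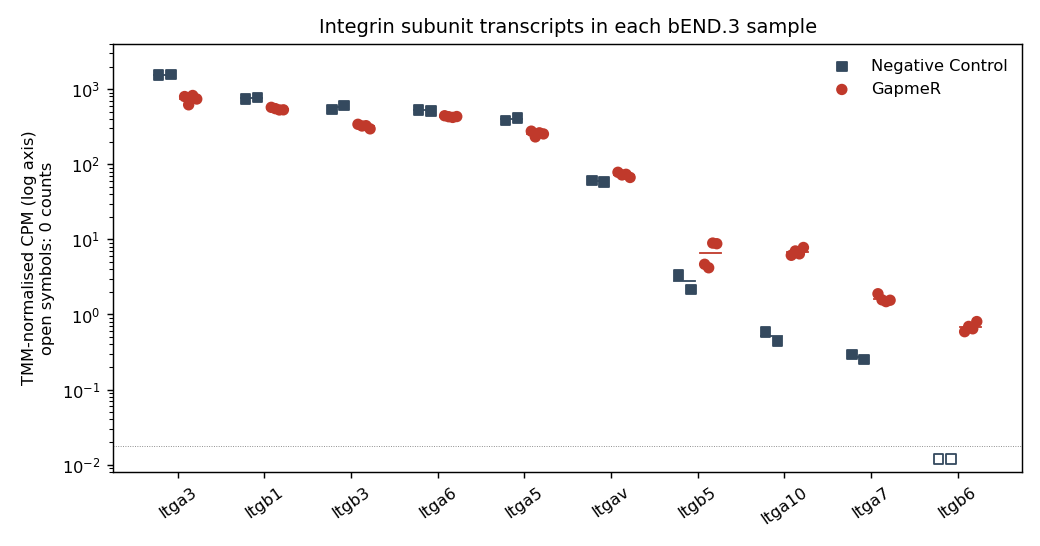
TMM-normalised CPM (vertical log axis) of the 10 integrin genes in each sample, with squares for the 2 Negative Control samples, circles for the 4 GapmeR samples and short lines for group means. The open squares of Itgb6 stand for 0 counts, and for every gene the GapmeR samples lie wholly above or wholly below the controls.

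The promoters of Itga10 and Itgb6, which had few or no counts in the controls, are shown beside that of the abundant Itgb1, because their base composition differs. The sequences are from RefSeq on GRCm38.p6, the build of the counts (mm10). The table of promoters held 7 of the 10 genes, and Itga6, Itga7 and Itgb3 were not matched. Each sequence is read 5' to 3' on the strand of its gene and ends at the base before the annotated start, and capitals mark the GC box GGGCGG. The 200 bases before the start are shown, for Itga10 at chr3:96645384-96645583 on the plus strand, Itgb6 at chr2:60722604-60722803 on the minus strand, and Itgb1 at chr8:128685454-128685653 on the plus strand.
Itga10: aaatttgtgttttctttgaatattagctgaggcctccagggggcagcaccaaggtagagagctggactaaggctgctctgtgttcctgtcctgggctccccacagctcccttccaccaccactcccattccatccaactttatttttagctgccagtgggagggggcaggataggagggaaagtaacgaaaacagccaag
Itgb6: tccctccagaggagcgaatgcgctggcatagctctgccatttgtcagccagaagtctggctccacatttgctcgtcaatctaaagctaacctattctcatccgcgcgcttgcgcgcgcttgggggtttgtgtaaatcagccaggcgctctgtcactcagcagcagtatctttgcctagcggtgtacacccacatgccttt
Itgb1: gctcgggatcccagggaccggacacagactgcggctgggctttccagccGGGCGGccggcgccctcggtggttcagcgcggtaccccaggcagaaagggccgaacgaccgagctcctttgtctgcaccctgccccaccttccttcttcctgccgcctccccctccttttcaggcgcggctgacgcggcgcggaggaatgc
The Itga10 sequence held 1 CpG, that of Itgb6 held 11 and that of Itgb1 held 20, against a median of 5 in the 200 bases before the start of all 32851 promoters. The windows of the other main subunits held 20 (Itga3), 17 (Itgav), 16 (Itgb5) and 8 (Itga5), and second annotated starts of Itga3 and Itgb6 held 4 and 3. Motifs were searched on both strands: the GC box GGGCGG, present in 31.0% of all promoters, CCAAT (29.3%), TATAAA (9.96%), the AP-1 site TGANTCA (5.48%) and the E-box CACGTG (5.26%). None of these letters occurred in the windows of Itga10 or Itgb6 that are shown, and Itgb1 held 1 GC box. A match or its absence says nothing here about which factors bind.

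Among the laminin receptor chains, Itga3 fell most. It was the most abundant integrin transcript of the line, on mm10 at chr11:95044475-95076844 on the minus strand. Its CPM was 798, 620, 825 and 740 across GapmeR samples 1 to 4, against 1557 and 1564 for the control pair. Both controls lay far above all 4 GapmeR samples, with no overlap. The log2 fold change was -1.07 ± 0.10 (SE), 2.09-fold lower, with an adjusted p of 3.5e-07 in edgeR. Of the 620 genes with at least 300 CPM, 10 had a lower log2 fold change than Itga3.

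Itga6 (chr2:71786886-71858427, plus strand), whose partners are Itgb1 and Itgb4, changed far less. Its CPM was 443, 430, 421 and 432 under the GapmeR, against 532 and 511 in controls. The log2 fold change was -0.27 ± 0.07 (SE, adjusted p = 0.0050 in edgeR). Of the same 620 genes, 220 had a lower value and 399 a higher one. Its call was lost with scaling by library size (-0.12, adjusted p = 0.15), with the replicate block (-0.23, adjusted p = 0.0774), and without control 1 (-0.22, adjusted p = 0.103). With GapmeR samples 1 and 2 alone the adjusted p was 0.0696.

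Itga7 (chr10:128933421-128958286, plus strand) was low throughout and was picked for its rise. It had 64, 61, 46 and 50 counts in the GapmeR samples and 8 counts in each control. In CPM the group means were 1.62 ± 0.182 (SD, n = 4) and 0.271 ± 0.0293 (SD, n = 2). Its fitted log2 fold change was 2.57, which is 5.93-fold. Even so, Itga7 held 0.0876% of the alpha chain transcript in the GapmeR samples, where Itga3 held 57.0%. Mettl7b, which overlaps the end of Itga7 by 10 bases on the opposite strand, had 0 counts in 5 samples and 1 in control 1, and Bloc1s1, 9896 bases away on the opposite strand, fell (log2 fold change -0.51, adjusted p = 0.00029 in edgeR). Of the non-coding genes annotated inside Itga7, Gm25494 had 0 counts in every sample and Gm46186 was not analysed here. Of the 10 skeletal muscle markers, 6 had no more than 3 counts in any sample, Myod1 with at most 1. Their summed level was 3.06 to 4.45 CPM under the GapmeR, against 1.03 to 1.06 in controls. Acta1, the largest part of that sum, had 99, 88, 95 and 73 counts against 27 and 32. The creatine kinase Ckm had 19, 17, 24 and 17 counts against 0 and 0, and passed the filter only through the GapmeR samples. The 8 mural cell markers summed to 8.56 to 13.1 CPM under the GapmeR and 2.16 to 2.26 in controls. Of 7 tested, 2 were called higher, which is 28.6% beside 25.4% of all genes. Myh11 made up the largest part of the GapmeR sum, at 5.64 CPM against 0.308 in controls. The part of either group of markers in the Itga7 values was not tested.

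Among the receptors of fibronectin and other RGD proteins, Itga5 and Itgb3 fell and Itgav rose. Itga5 (chr15:103344286-103366791, minus strand), the fibronectin receptor chain that pairs with Itgb1, had 276, 232, 262 and 254 CPM under the GapmeR, against 385 and 412 in controls. Its log2 fold change was -0.64 ± 0.08 (SE, adjusted p = 6.9e-06 in edgeR), and 50 of the 620 abundant genes had a lower one. Itgb3 (chr11:104608000-104670476, plus strand), the partner of Itgav in the vitronectin receptor, had 341, 324, 327 and 296 CPM against 540 and 605. The fall was 1.78-fold, a log2 fold change of -0.83 ± 0.08 (SE, adjusted p = 3.3e-07 in edgeR), with 28 of the 620 genes lower. Both genes kept their call when any 1 sample was left out.

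Itgav (chr2:83722303-83806917, plus strand), the alpha chain shared by Itgb3, Itgb5 and Itgb6, moved the other way. Its CPM was 78.3, 72.2, 73.6 and 66.8 under the GapmeR, against 61.1 and 58.5 in controls. The log2 fold change was 0.28 ± 0.08 (SE, adjusted p = 0.0072 in edgeR). Without control 2 the value was 0.27 and the adjusted p 0.0769. Among the 3705 genes between 30 and 100 CPM, of which 20.6% were called higher, 594 had a higher log2 fold change.

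Itgb5 (chr16:33829665-33949338, plus strand), the other vitronectin-binding partner of Itgav, was split within the GapmeR group. It had 158, 163, 277 and 283 counts across GapmeR samples 1 to 4, against 92 and 69 for the control pair. GapmeR samples 1 and 2 lay at 4.66 and 4.19 CPM, samples 3 and 4 at 8.93 and 8.76, and the controls at 3.36 and 2.16. The log2 fold change was 1.27 ± 0.42 (SE, adjusted p = 0.0493 in edgeR). This call was the least firm of the 7: the adjusted p was 0.0796 without GapmeR sample 3, 0.0795 without control 1, 0.233 without control 2, 0.056 with DESeq2 size factors and 0.0763 with limma-voom. Against both controls, GapmeR samples 1 and 2 alone gave 0.71 with an adjusted p of 0.0052.

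Of 10 macrophage markers, 7 were split as Itgb5 was, with GapmeR samples 3 and 4 both above samples 1 and 2, and Cd68, Aif1 and Cx3cr1 were not. Cd68, a lysosomal protein of macrophages, had 123, 113, 125 and 116 CPM against 87.2 and 89.5. The 10 markers summed, of which Lyz2 and Cd68 were the largest, came to 225, 206, 345 and 378 CPM across GapmeR samples 1 to 4, against 173 and 167 CPM for the control pair. Of these 10 markers, 3 were called higher, which is 30% beside 25.4% of all genes. Itgb2, the beta chain of the leukocyte integrins, had 168, 203, 464 and 475 counts against 104 and 147. Relative to the control mean, Itgb2 stood at 1.18 and 1.24 in GapmeR samples 1 and 2 and at 3.56 and 3.5 in samples 3 and 4, where Itgb5 stood at 1.69, 1.52, 3.24 and 3.17. The part of the cells that carry these markers in the Itgb5 value was not tested. Itga10 and Itga7 did not follow this split, at 12, 13.7, 12.5 and 15.3 times and 6.96, 5.77, 5.47 and 5.7 times their control means.

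**Figure D2:**
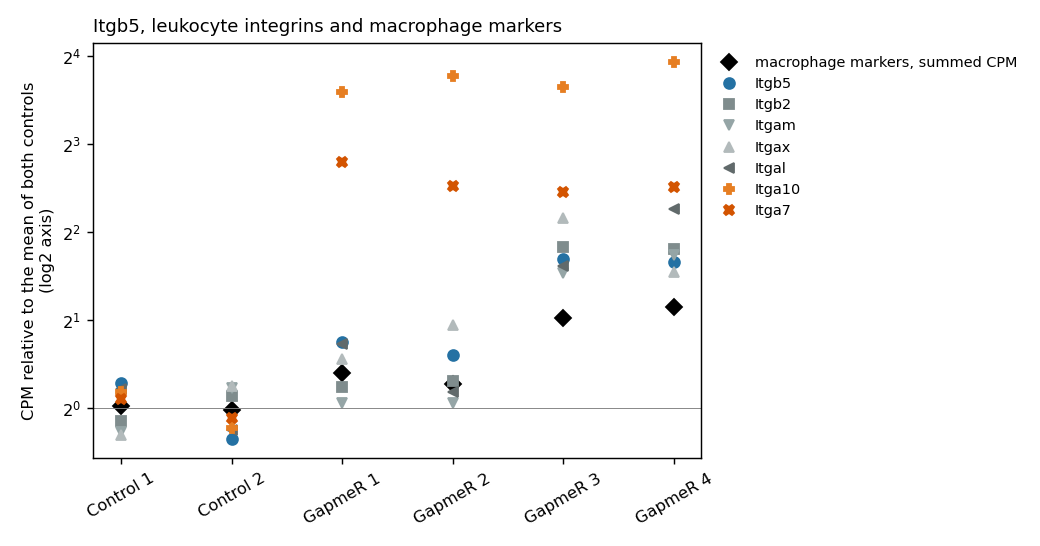
CPM of Itgb5, of 4 leukocyte integrins, of Itga10 and Itga7 and of 10 summed macrophage markers in each sample, relative to the mean of both controls (log2 axis). Itgb5, Itgb2, Itgam, Itgax, Itgal and the summed markers are highest in GapmeR samples 3 and 4, while Itga10 and Itga7 are high in all 4 GapmeR samples.

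Itgb6 (chr2:60598292-60722603, minus strand) was picked for its rise from no counts at all. It had 20, 27, 20 and 26 counts in the GapmeR samples and 0 in both controls. With 3 counts set as the floor in each control library, the GapmeR mean of 0.683 CPM was at least 6.72-fold higher than the controls. The bound covers counting error only. Gm33436, a long non-coding RNA gene annotated inside Itgb6, was not analysed here. Rbms1, 27589 bases upstream on the same strand, fell (log2 fold change -0.495, adjusted p = 8.2e-05 in edgeR), and Pla2r1, 44965 bases downstream, had 0 to 4 counts in a sample.

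The epithelial markers Epcam and Cdh1 were at or near 0, with at most 1 and 2 counts in a sample. The 10 epithelial markers summed to 7.09 to 8.41 CPM under the GapmeR, against 1.68 to 1.97 in controls, and the transcription factor Grhl2 had 233, 230, 159 and 198 counts against 25 and 30. Other markers of the list that were called higher (Krt8, Cldn4 and Ovol1) passed the filter only through the GapmeR samples. Krt14, also on the list, was called lower (log2 fold change -2.75, adjusted p = 0.0035 in edgeR). It had 1, 2, 1 and 1 counts against 7 and 9, and passed the filter only through the controls. The part of epithelial gene expression in the Itgb6 values was not tested.

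The collagen receptor chain Itga10 (chr3:96645584-96664519, plus strand) was also picked for its rise. It had 208, 273, 199 and 252 counts under the GapmeR, against 16 and 14 in controls. The means were 6.84 ± 0.736 CPM (SD, n = 4) under the GapmeR and 0.511 ± 0.103 CPM (SD, n = 2) in controls. The fitted rise was 13.4-fold. Per kilobase of merged exons, Itga10 moved from rank 19 to rank 9 among the 27 integrin genes listed.

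The nearest protein-coding gene downstream of Itga10, Ankrd35, 5611 bases away on the same strand, had 11 to 21 counts against 3 and 8 (log2 fold change 1.26, adjusted p = 0.047 in edgeR).

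Of the 10 cartilage markers, 4 had no more than 3 counts in any sample, and Acan, the main proteoglycan of cartilage, had at most 7. They summed to 7.16 to 8.85 CPM under the GapmeR, against 2.88 to 3.16 in controls. Col11a2, the largest part of that sum, had 165, 233, 145 and 218 counts against 39 and 46. Col2a1 and Comp, also called higher, passed the filter only through the GapmeR samples. Sox9, also on the list, was lower, with 29, 12, 28 and 14 counts against 30 and 38. It was not called (log2 fold change -0.89, adjusted p = 0.069 in edgeR). The part of these markers in the Itga10 values was not tested.

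Itgb1 (chr8:128685654-128733579, plus strand) is the beta chain that all of these alpha chains except Itgav use as a main partner. Its CPM was 573, 551, 529 and 531 under the GapmeR, against 740 and 775 in controls. The log2 fold change was -0.47 ± 0.07 (SE, adjusted p = 6.8e-05 in edgeR), and 99 of the 620 abundant genes had a lower one. Under the alternatives its value lay between -0.49 and -0.32, with a highest adjusted p of 0.00769.

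**Figure D3:**
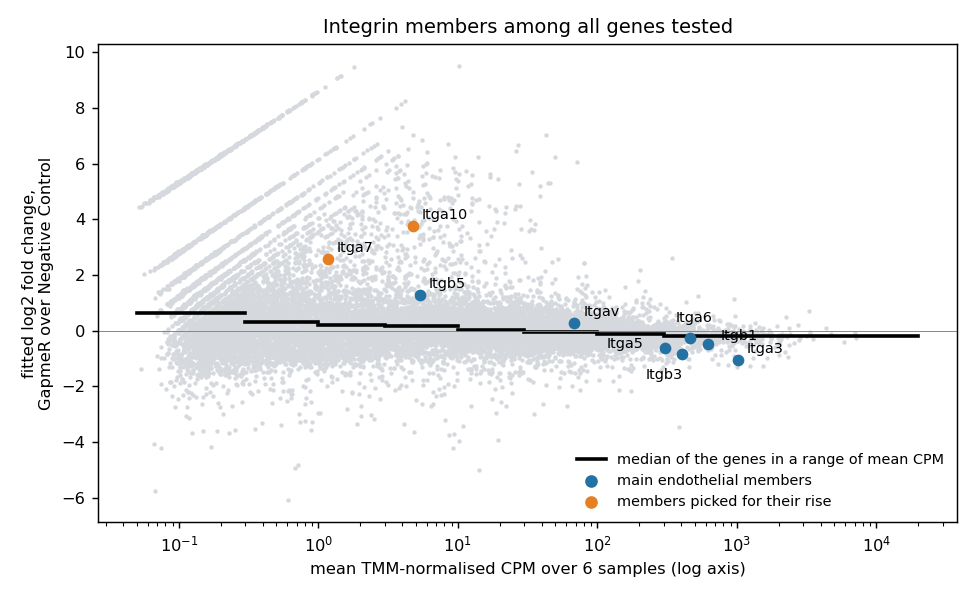
Fitted log2 fold change of each of the 18234 genes tested (grey) against its mean CPM over the 6 samples (log axis), with black bars for the median in each range of CPM. Itga3, Itgb3, Itga5 and Itgb1 lie below the median of -0.18 among the most abundant genes, Itga6 lies near it, and Itga10 and Itga7 lie above the medians of their ranges, 0.15 and 0.189, with 108 of 2084 and 226 of 1818 genes higher; Itgb6, which has no counts in the controls, is not drawn, and the diagonal bands are genes with few or no control counts.

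Per kilobase of merged exons, the order of the integrin chains changed little at the top. In the controls the mean levels were 268 CPM per kb for Itga3, 127 for Itgb1, 86.5 for Itgb3, 74.9 for Itga5 and 45.8 for Itga6. In the GapmeR samples they were 128, 91.5, 48.7, 48.1 and 37.9. Itgb3 and Itga5 then differed by less than the spread between samples. Itgb4 and Itgav followed at 11.8 and 4.85 CPM per kb in the controls and 9.49 and 5.89 in the GapmeR samples. All 3 picked genes stayed far below these, at 1.32 (Itga10), 0.196 (Itga7) and 0.0933 (Itgb6) CPM per kb in the GapmeR samples. Itgb5, though taken as a main subunit, was also low, at 0.391 CPM per kb in the controls and 0.94 in the GapmeR samples. In the GapmeR samples it lay below Itga10.

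The balance of partner transcripts was set out within each sample, where scaling between samples has no part. The 12 alpha chains that can pair with Itgb1, summed per kb and divided by Itgb1, gave 2.48, 2.14, 2.68 and 2.5 under the GapmeR, against 3.18 and 3.07 in controls. The groups did not overlap, with Itga3 the largest share of the sum. Itga3 made up 67.6% ± 0.28 (SD, n = 2) of the alpha transcript in the controls and 57.0% ± 2.4 (SD, n = 4) in the GapmeR samples, while Itga6 went from 11.5% to 17.0%, Itga5 from 18.9% to 21.5% and Itgav from 1.22% to 2.64%. Itga10 went from 0.0249% to 0.594%.

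For the Itgav receptors, the sum of Itgb3, Itgb5 and Itgb6 per kb divided by Itgav was 8.24, 8.48, 8.5 and 8.53 under the GapmeR, against 16.6 and 19.3 in controls. Nearly all of that sum was Itgb3. The same permutation test again gave its smallest possible p = 0.0667. These are ratios of RNA, and neither protein nor pairs at the cell surface were measured here.

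**Figure D4:**
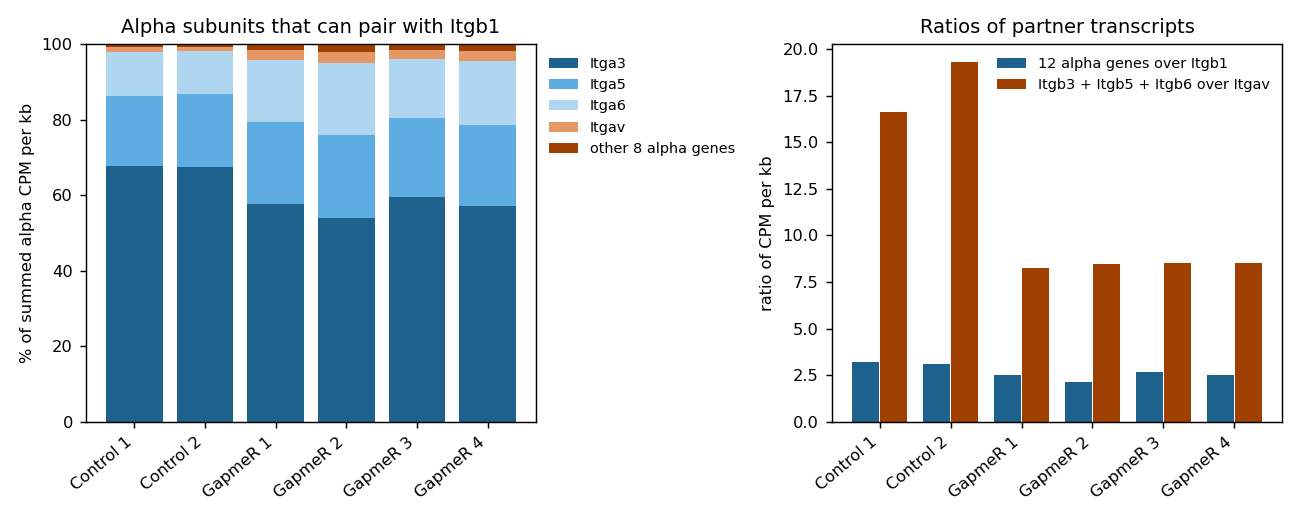
Left, share of the summed alpha chain CPM per kb (percent) held by each alpha gene that can pair with Itgb1, per sample. Right, ratio of the 12 alpha genes to Itgb1 and of Itgb3, Itgb5 and Itgb6 to Itgav in CPM per kb; Itga3 holds a smaller share, and both ratios are lower, in all 4 GapmeR samples than in both controls.

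Of the other 17 integrin genes, 14 could be tested, and 6 were higher, 3 lower and 5 not called by edgeR. The share called was 64.3%, beside 45.3% of all genes. It counts Itga11, which passed the filter only through the GapmeR samples, and the other 5 higher genes had at least 5 counts in both controls. Their median log2 fold change was 1.13, beside 0.03 over all genes tested. A gene with few control counts could pass the filter through the GapmeR samples alone, so neither this share nor this median is support for a rise of the family. Itga1, a collagen receptor chain, fell from 11.4 to 3.37 CPM (log2 fold change -1.77 ± 0.13 SE, adjusted p = 1.5e-08 in edgeR), with 125, 122, 105 and 105 counts against 300 and 380. Itga4, which binds VCAM1 and fibronectin, fell from 25.4 to 13.0 CPM (-0.96, adjusted p = 2.5e-07 in edgeR). Itgb4, the hemidesmosome partner of Itga6, fell from 85.0 to 68.5 CPM (-0.31, adjusted p = 0.0097 in edgeR), a call that was lost with library size scaling (-0.16, adjusted p = 0.142), without control 1 (0.135) and without control 2 (0.0629).

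Itga2 rose from 4.39 to 8.10 CPM (log2 fold change 0.89, adjusted p = 0.00019 in edgeR), the opposite direction to Itga1. Itga11, another collagen receptor chain, had 12, 21, 20 and 11 counts against 2 and 5. Since it passed the filter only through the GapmeR samples, its call is counted above but not read as a result. Among chains known from blood cells, Itga2b of the platelet fibrinogen receptor rose from 1.80 to 5.35 CPM (1.58, adjusted p = 5.6e-06 in edgeR). The E-cadherin receptor chain Itgae had 70 to 80 counts against 16 and 10 (2.27, adjusted p = 1.2e-05 in edgeR), and its partner Itgb7 had 53 to 74 against 10 and 20 (1.89, adjusted p = 0.00013 in edgeR).

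The leukocyte chains were highest in GapmeR samples 3 and 4, as were 7 of the 10 macrophage markers. Itgax was called higher (1.41, adjusted p = 0.038 in edgeR), but not without GapmeR sample 4 (0.0595), control 1 (0.204) or control 2 (0.11), nor with limma-voom (0.0727). Itgb2 (1.23 ± 0.71 SE), Itgal (1.41 ± 0.64 SE) and Itgam (1.03 ± 0.59 SE) were not called by edgeR. DESeq2's Wald test called Itgam (adjusted p = 0.0449), and with no filter beyond 1 count edgeR called Itgam (0.00511) and Itgal (0.00316). With GapmeR samples 1 and 2 alone Itgb2 was at 0.29 and Itgam at 0.06. Itgal had an adjusted p of 0.0104 without GapmeR sample 2 in edgeR. Itga9 (0.26) and Itgb8 (-1.59, with 1 to 4 counts against 7 and 8) were not called by edgeR either, although the adjusted p of Itgb8 was 0.042 without GapmeR sample 3 and 0.0297 with limma-voom. Itga8, Itgad and Itgb2l had too few counts to be tested.

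**Figure D5:**
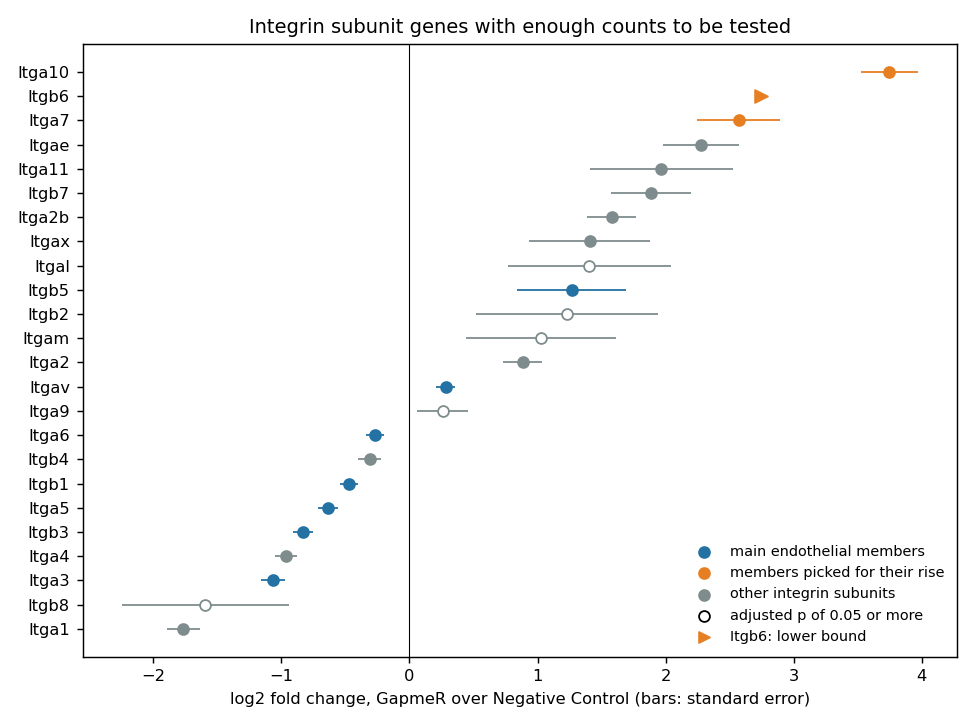
Log2 fold change of GapmeR over Negative Control with its standard error for the 24 integrin genes tested, with open circles where the adjusted p was 0.05 or more. The triangle of Itgb6 is a lower bound, the 3 genes picked for their rise carry no test, and the chains below 0 include Itga3, Itgb3, Itga5, Itgb1, Itga6, Itga1 and Itga4.

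Of 24 laminin and collagen genes tested, 37.5% were called, below the 45.3% of all genes: 4 were higher, Col4a4 among them only through its GapmeR counts, 5 lower and 15 not called, with a median log2 fold change of -0.005. Col8a1 (-0.999), Col4a2 (-0.87), a chain of basement membrane collagen, and Lamb1 (-0.68), a laminin beta chain, fell, and Lama4, an endothelial laminin alpha chain, rose (0.71, from 53.3 to 87.0 CPM). The fibrillar collagen Col1a1, named after its values were seen, stood at 38 CPM in GapmeR sample 3 and between 1.68 and 4.58 CPM in the other 5 samples.

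In the group of RGD proteins and latent TGF-beta genes, 9 of 19 tested were lower, 0 higher and 10 not called by edgeR, with a median of -0.35. The 47.4% called is near the 45.3% of all genes, and 20.0% of all genes were lower. In the ranges of mean CPM from 30 up, where many of these genes lie, 31.2% to 44.5% of all genes were lower. DESeq2 and limma-voom also called 0 higher, and 0 were higher at an unadjusted p under 0.05. With scaling by library size only, or without GapmeR sample 2, 1 was higher. The isoform Tgfb3 fell from 17.3 to 6.09 CPM (-1.50, adjusted p = 1.3e-08 in edgeR). Tnc, or tenascin C, fell from 2511 to 1036 CPM (-1.28, adjusted p = 7.2e-09 in edgeR). Thrombospondin 1 (Thbs1, -0.92) and the latent TGF-beta binding protein Ltbp1 (-0.88) also fell.

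Among 27 genes that activate integrins or build the adhesion plaque, 3 were higher, 8 lower and 16 not called, with a median of -0.16, and the 40.7% called is near the 45.3% of all genes. With scaling by library size only, the split was 10 higher and 4 lower. Fermt3, or kindlin-3, the integrin activator of blood cells, had 1562, 1750, 1460 and 1665 counts under the GapmeR, against 91 and 87 in controls (3.98 ± 0.12 SE, 15.7-fold, adjusted p = 4.9e-13 in edgeR). The GapmeR samples were close to each other and far above the controls, without the split seen in 7 macrophage markers. Parvg, a parvin of blood cells, rose 4.69-fold (2.23, adjusted p = 2.6e-09 in edgeR), while Lims2 (-1.38), a PINCH adaptor, and the tensin Tns3 (-0.63) fell.

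Of 27 genes tested on the inhibitor or trafficking list, 15 were lower, 2 higher and 10 not called, with a median of -0.38. The list also holds genes with other roles at integrins, such as Cd47, Slc3a2 and Krit1, described below. Its counts are therefore not counts of inhibitors and trafficking genes alone. The 63.0% called stands beside 45.3% of all genes, and the 55.6% lower beside 20.0%. In the ranges of mean CPM from 30 up, 31.2% to 44.5% of all genes were lower. Cd47, which associates with Itgb3 receptors, fell from 302 to 119 CPM (-1.35, adjusted p = 3.5e-10 in edgeR). Slc3a2, the CD98 heavy chain that binds beta tails, fell from 1003 to 490 CPM (-1.03), and Krit1, which frees Itgb1 from its inhibitor Icap1, fell from 26.3 to 11.9 CPM (-1.14). Rab25, an epithelial recycling GTPase for Itga5 with Itgb1, had 129 to 173 counts against 9 and 11 (3.72 ± 0.27 SE, adjusted p = 1.4e-08 in edgeR).

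Of 16 matrix receptors outside the integrin family, 8 were lower, 3 higher and 5 not called, with a median of -0.18. The 68.8% called stands beside 45.3% of all genes, and the 50% lower beside 20.0% of all genes and 31.2% to 44.5% in the ranges from 30 CPM up. The hyaluronan receptor Cd44 fell from 111 to 58.3 CPM (-0.93, adjusted p = 1.2e-08 in edgeR), while Hmmr, which binds hyaluronan and also acts at the mitotic spindle, rose from 6.57 to 12.5 CPM (0.93, adjusted p = 0.00028 in edgeR). Lyve1, a hyaluronan receptor of lymphatic endothelium, was not called by edgeR (0.12, adjusted p = 0.24). Antxr1 (-0.55) and the laminin receptor dystroglycan, Dag1 (-0.47), fell.

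The genes most like Itga10 over the 6 samples, by the root mean square difference of centred log2 CPM among 12772 candidates, were Mamstr (0.067), Slc2a4rg-ps (0.0784) and Gm4869 (0.0975). Those most like Itga7 were Plb1 (0.0683), Zc2hc1c (0.0919) and Sync (0.105). With 6 samples in 2 groups, this likeness reflects mainly the size of the difference between the groups, which was 3.82, 3.75 and 3.61 for the first set on the log2 scale beside 3.74 for Itga10.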

How the data were processed

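The authors deposited raw read counts for each Ensembl gene, as whole numbers and not normalized. The submitters' processing notes name Trimmomatic 0.36, STAR 2.5.2b, Subread 1.5.2 and mm10 (GRCm38). The strand setting and Ensembl release are not given in the sources used here, so reads of genes that overlap or lie antisense may be shared. The study tested with DESeq2 and gives n = 4 per group, and 4 GapmeR and 2 control samples were analysed here. The table has 1 further per-sample column, which was not used. Of 2 rows named Itgam, the one with more counts was taken. The 174 genes without a name kept their identifier.

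Genes that reached 5 counts in 2 or more samples were tested with edgeR 4.0.16 in R 4.3.3 (TMM scaling, robust quasi-likelihood test, Benjamini-Hochberg adjustment over all genes tested). CPM values are TMM-normalised and SDs are between samples. Chi-square per degree of freedom between replicates was 5.42 to 25.3, so no samples agreed within sampling noise. Floors of 3 counts cover counting error only. Gene lengths came from GENCODE on GRCm39 by identifier, and coordinates from RefSeq on GRCm38.p6.

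The members and gene lists were chosen with earlier results of these data known. The text names all tested integrin genes, the 4 genes with the largest called change at 1 CPM or more in each other list, the neighbours of Itga7, Itga10 and Itgb6 (1 of them is not reported here), and the 3 genes nearest in pattern to Itga10 and Itga7, and a few others as markers. Alternatives were other scalings, DESeq2 1.42.0, limma-voom (limma 3.58.1), other filters, the replicate block and each sample left out. The functions were checked on simulated data.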

Additional observations from a re-analysis of the deposited data

Results flagged for a closer look

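The integrin genes and the genes of the ligand, activator, inhibitor and receptor lists with a mean of at least 1 CPM were examined for a GapmeR sample far from the other 3. The set was widened from the integrins alone after seeing the data. Of 129 genes, 12 had one, and no integrin was among them. Chance gives about 1 in 20. The values here are the gap to the nearest sample as a share of the range of the 4 GapmeR samples. GapmeR sample 3 lay above the others for the fibrillar and interstitial matrix genes Col1a1 (0.934), Col1a2 (0.942), Col3a1 (0.92), Col6a1 (0.926) and Fbn1 (0.874), with Col1a2 at 25.2 CPM and Col3a1 at 17.8 CPM there and at most 3.07 and 2.94 CPM in every other sample. GapmeR sample 2 lay below the others for Lama3 (0.839), Lamb2 (0.882), Col18a1 (0.895), Fn1 (0.879) and Tspan4 (0.885), and GapmeR sample 4 above them for Lama4 (0.842) and Npnt (0.972).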

How the results depend on the processing

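No integrin gene changed direction under any alternative run. Itga3, Itga5, Itgb1 and Itgb3 stayed called in all, except that Itgb1 did not reach the 1.5-fold minimum, and the log2 fold changes of Itga3 lay between -1.13 and -0.92, those of Itga10 between 3.56 and 3.97 and those of Itga7 between 2.48 and 2.72. Scaling by library size only raised the median log2 fold change of all genes by 0.148 and left 2135 lower calls in place of 3643. It gave 3 lower laminin and collagen genes in place of 5, 1 higher RGD gene in place of 0, 10 higher and 4 lower activators in place of 3 and 8, and 5 higher inhibitor or trafficking genes in place of 2. DESeq2 size factors and limma-voom each called 1 main subunit higher in place of 2, since Itgb5 was lost. Requiring 10 counts in every sample left 1 higher inhibitor or trafficking gene.

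A minimum of 1.5-fold, added for all genes after seeing the data, left 1390 lower genes. It left 1 higher and 3 lower main subunits, 2 higher and 3 lower laminins and collagens, 5 lower RGD genes, 2 lower activators, 1 higher and 8 lower inhibitor or trafficking genes, and 1 higher and 1 lower other matrix receptor. GapmeR samples 1 and 2 alone, also added after seeing the data, gave 5 lower activators and 1 higher other matrix receptor.

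Leaving out each sample in turn gave 1930 to 3949 lower genes, the lowest without control 2 and 2262 without control 1. It gave 0 to 2 higher main subunits, 2 to 5 higher and 3 to 5 lower laminins and collagens, 0 to 1 higher RGD genes, 2 to 5 higher and 4 to 11 lower activators, and 1 to 3 higher other matrix receptors. The causes of these shifts were not tested. With 1 control left, that sample is assumed to vary like the others.

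The replicate block used GapmeR and control samples 1 and 2, with 1 residual degree of freedom. The deviations of same-numbered samples correlated at -0.11 and 0.172. With 2 controls, the control deviations mirror each other, so these values cannot decide whether same-numbered samples were handled together. The labels give only a number. The block gave 7812 calls in place of 8268, lost Itga6 (-0.23, adjusted p = 0.0774) and left 1 higher other matrix receptor in place of 3. With 2 controls, the precision of each value rests on the spread shared across genes, and genes under about 10 counts, such as Itgb8, are the least certain.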
